A study of Homo sapiens with 8 samples.

Results

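*MYCN* and 7 genes that lie near it at 2p24 on the short arm of chromosome 2 were followed through the MBD-seq peak lists of 8 neuroblastoma (NB) cell lines. The 8 genes, *MYCN*, *MYCNOS*, *DDX1*, *NBAS*, *CYRIA* (formerly *FAM49A*), *GACAT3*, *RAD51AP2* and *VSNL1*, were taken by name from the 64449 annotated genes of GENCODE release 44 in GRCh37 coordinates. No measured value served as a criterion, but earlier results of these data were known when the genes were chosen. In MBD-seq, sheared genomic DNA is captured with the methyl-CpG-binding domain of MBD2, which enriches methylated fragments, and stretches with many reads are called as peaks. N206, IMR-32, CHP-902R and LAN-2 (LA-N-2 in the sample title) are labelled as *MYCN* amplified (MNA). SK-N-AS, SJNB-1, SH-SY5Y and CLB-GA are labelled as not amplified and called *MYCN* single copy here. All are established cultures of tumor cells, with 1 library each. The 4 lines of a group stand in for replicates, and a p-value measures the spread between lines. Genomic DNA holds no expression, so the cell type could not be checked against marker genes.

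*MYCN* encodes a transcription factor of the MYC family that pairs with MAX, and its amplification is a classical marker of aggressive NB. Amplified DNA is carried as many extra copies of a stretch of 2p24, and the ends of that stretch differ from tumor to tumor, so that neighbours such as *DDX1* and *NBAS* are co-amplified in some tumors and not in others. Methylated CpG is what MBD2 binds, and unmethylated CpG islands at gene starts are normally not captured.

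The sequences below, all from the plus strand of GRCh37 and outside annotated exons, show the CpG content behind the peaks, with each CpG in capitals. The stretch just upstream of the *MYCN* transcription start site (TSS), chr2:16080474-16080671, is shown because no line had a peak on it. A stretch of *DDX1*, chr2:15759360-15759659, lies in the merged region with a peak in all 8 lines, although 3 of those peaks end before it. Its label, all lines, refers to the merged region. Peaks lay on the stretch itself in 5 lines, over 36% of it in SK-N-AS. Another stretch of *DDX1*, chr2:15766666-15766965, lies under an IMR-32 peak with 0.328 CpG per 100 bp, the lowest value in the 8 genes, and holds no CpG. This last stretch was chosen after its values were seen.
*MYCN* upstream: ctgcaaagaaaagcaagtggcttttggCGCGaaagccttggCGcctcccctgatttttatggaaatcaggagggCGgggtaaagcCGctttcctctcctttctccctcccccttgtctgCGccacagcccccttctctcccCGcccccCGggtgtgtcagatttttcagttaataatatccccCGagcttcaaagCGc
*DDX1*, all lines: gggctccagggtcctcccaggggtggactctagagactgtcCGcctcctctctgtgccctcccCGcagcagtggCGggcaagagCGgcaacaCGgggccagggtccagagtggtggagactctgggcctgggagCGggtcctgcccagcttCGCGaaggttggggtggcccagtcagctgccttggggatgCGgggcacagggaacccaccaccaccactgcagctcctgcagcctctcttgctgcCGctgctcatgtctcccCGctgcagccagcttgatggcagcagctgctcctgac
*DDX1*, IMR-32 only: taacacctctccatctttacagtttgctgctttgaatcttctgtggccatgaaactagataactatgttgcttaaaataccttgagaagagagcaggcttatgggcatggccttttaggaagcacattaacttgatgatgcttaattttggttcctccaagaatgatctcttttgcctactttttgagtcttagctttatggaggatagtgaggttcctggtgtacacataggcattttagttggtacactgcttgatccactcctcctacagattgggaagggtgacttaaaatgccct

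The lists held 70816 to 112412 peaks, which covered 1.47% to 2.22% of the autosomes. They give positions and a score of the authors, with a lowest value of 50, and no read counts. The study states its read numbers only as a range over the lines, so the depth of each single list is unknown, and the absence of a peak is an absence at that depth. N206 stood apart at *MYCN*, where its list was empty, and gene body cover near *MYCN* is given with and without it.

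*MYCN* itself carried a single peak in 7 of the 8 lines, always over the first part of exon 3, the last exon (chr2:16085615-16087126), and in 5 lines reaching back into intron 2. In the MNA lines this peak scored 1881 in IMR-32, 1479 in LAN-2 and, at the lowest, 1260.1 in CHP-902R. Its score was 114 in CLB-GA, 102 in SK-N-AS as well as SJNB-1, and 79.7 in SH-SY5Y, so the 3 MNA peaks had the highest scores, given as a description since the score also grows with depth. By its rank within the list, over 99.9% of the list scored lower in the 3 MNA lines (the lowest share was 99.985% in IMR-32), against 63.6% in SH-SY5Y and 88.8% to 89.8% in the other single copy lines. The peak was 1884 bp wide in LAN-2, 1876 bp in IMR-32 and 1665 bp in CHP-902R, and 944 bp in SH-SY5Y, 915 bp in CLB-GA, 560 bp in SK-N-AS and 421 bp in SJNB-1. N206 had no peak in the gene.

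The share of the *MYCN* gene body (chr2:16080672-16087129, plus strand) under peaks was 29.2% in LAN-2, 29.0% in IMR-32, 25.8% in CHP-902R and 0% in N206. It was 14.6% in SH-SY5Y, 14.2% in CLB-GA, 8.67% in SK-N-AS and 6.52% in SJNB-1. The MNA mean of 21.0% ± 14.1 (SD, n = 4) was 10.01 percentage points above that of the single copy lines, which had an SD of 4.03 (n = 4), and N206, which lay below all single copy lines, made the groups overlap (two-sided exact permutation test, p = 0.171). Without N206 the 3 other MNA lines covered 28.0% ± 1.92 (SD, n = 3), 17.0 percentage points above the single copy lines, and the groups did not overlap (exact permutation test, p = 0.0286, which 3 lines against 4 cannot go below). The adjusted p over all genes was then 0.937, and 2.58% of all genes separated these lines in the same direction. N206 was left out because of its empty list at this gene, and it was the only line that made the groups overlap. Its removal thus fixed this outcome, and the p without it is only a description. Counted as peaks rather than as covered length, *MYCN* did not differ between those 7 lines, since each had 1 peak.

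**Figure D1:**
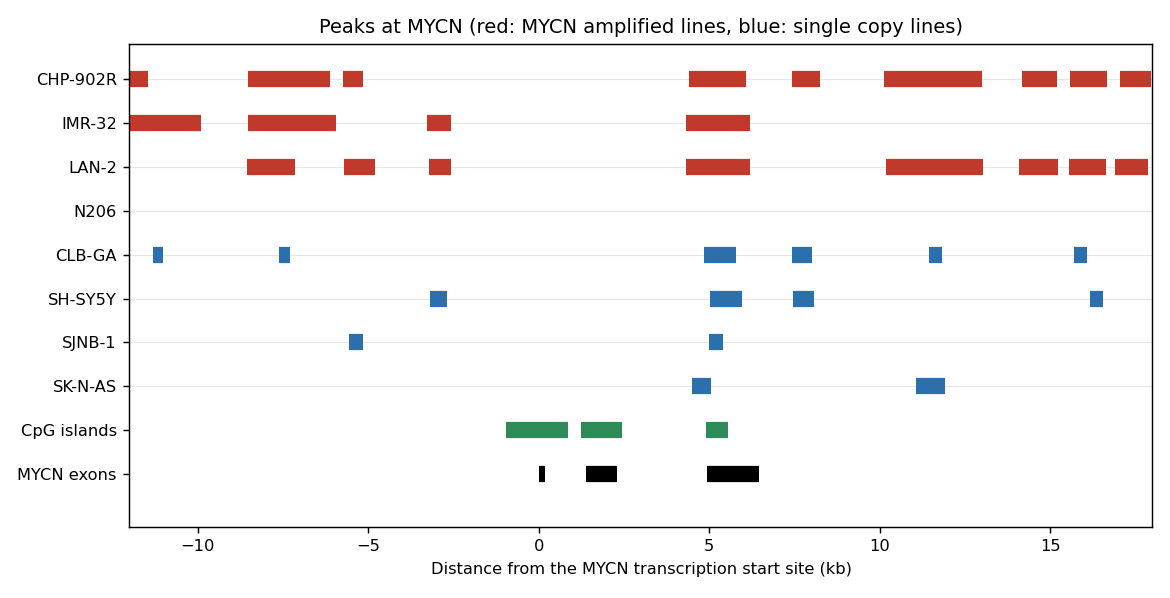
Peaks from 12 kb before to 18 kb after the *MYCN* TSS in each line (bars, horizontal axis: distance in kb), with sequence-defined CpG islands in green and the *MYCN* exons in black. A peak lies over the first part of the last exon in every line but N206, and no line has a peak on the islands at the start of the gene.

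*MYCNOS*, the antisense long non-coding RNA gene that overlaps the start of *MYCN* (chr2:16058473-16082371, minus strand), was covered by 55.3% in IMR-32, 35.5% in CHP-902R, 26.9% in LAN-2 and 0% in N206. Of the single copy lines SH-SY5Y covered 3.40%, CLB-GA 2.64%, SK-N-AS 1.90% and SJNB-1 1.73% of it. The 3 MNA lines with peaks lay far above every single copy line, and N206 below them all. The difference of the means was 27.0 percentage points (exact permutation test, p = 0.143) and, without N206, 36.8 points (p = 0.0286 in the same exact test, adjusted p = 0.937). Here too N206 was the only MNA line that overlapped, so the p without it was fixed by its removal. Peaks on *MYCNOS* were few and wide in the MNA lines, 4 or 5 with a median width of 1317 to 3522.5 bp, against 1 or 2 of 315.5 to 453 bp in the single copy lines. None of the MNA peaks reached 3 CpG per 100 bp, and among the single copy peaks only 1 of CLB-GA did (3.67).

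*DDX1* encodes an RNA helicase of the DEAD box family and lies before *MYCN* (chr2:15731302-15774470, plus strand). Peaks covered 34.7% of it in IMR-32 and 18.2% in CHP-902R, but 5.58% in LAN-2 and 2.52% in N206. Among the single copy lines the values were 5.98% (SJNB-1), 5.91% (CLB-GA), 5.15% (SK-N-AS) and 2.02% (SH-SY5Y), so that LAN-2 and N206 lay within their range and the other MNA lines above it. The difference of 10.48 percentage points was within the spread between lines (exact permutation test, p = 0.257), and was 3.98 points without IMR-32 and 14.7 points without N206 (p = 0.371 and p = 0.0857 in the same exact test). The region of *DDX1* with a peak in every line, chr2:15758294-15760727, scored 2013 in CHP-902R and 1992 in IMR-32, and between 79.2 and 210 in the 6 other lines.

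*NBAS*, whose product acts in vesicle transport between the Golgi and the endoplasmic reticulum, is the longest of the 8 genes (chr2:15307040-15701464, minus strand). Its cover was 32.3% in IMR-32, 11.2% in CHP-902R, 3.72% in N206 and 2.48% in LAN-2. The single copy lines had 2.64% (SH-SY5Y), 2.16% (SK-N-AS), 1.86% (SJNB-1) and 1.83% (CLB-GA). Only LAN-2 fell within the single copy range, and the difference of 10.3 percentage points had p = 0.0571 in the exact permutation test. Without LAN-2 the difference was 13.6 points and the groups did not overlap (exact permutation test, p = 0.0286), as for 1.92% of all genes. Since LAN-2 was the only line that overlapped, its removal fixed this outcome, which is only a description. Without IMR-32 the difference was 3.69 points (p = 0.0571 in the same exact test). The number of peaks in the gene was 70 in CHP-902R and 109 in IMR-32, against 21 in LAN-2, 29 in N206 and 16 to 20 in the single copy lines.

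*GACAT3*, a long non-coding RNA gene beyond *MYCN* (chr2:16154050-16227323, plus strand), was covered by 38.5% in LAN-2 and 35.1% in CHP-902R, 3.80% in IMR-32 and 0% in N206. The single copy lines had 8.07% (SH-SY5Y), 5.67% (SJNB-1), 5.12% (CLB-GA) and 3.44% (SK-N-AS), a range that IMR-32 fell within. Thus the MNA lines that were high at *DDX1* were not those that were high at *GACAT3*, except for CHP-902R. The exact permutation test gave p = 0.4 for the difference of 13.8 percentage points, and p = 0.114 for 20.2 points without N206. Without CHP-902R the difference was 8.54 points and without LAN-2 7.40 points.

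*CYRIA*, which encodes an inhibitor of RAC1 signalling to actin (chr2:16730727-16847599, minus strand), had the opposite pattern in N206. Its cover was 26.2% in N206, 3.04% in LAN-2, 2.202% in CHP-902R and 1.12% in IMR-32. The single copy values were 3.13% (SH-SY5Y), 2.03% (SJNB-1), 1.22% (CLB-GA) and 0.686% (SK-N-AS), and the 3 other MNA lines did not leave that range. The mean difference of 6.38 percentage points (p = 0.343 in the exact permutation test) was 0.353 points without N206. N206 had 7 peaks in the gene with a median width of 4236 bp, all of them under 1.5 CpG per 100 bp.

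*RAD51AP2* (chr2:17691846-17699707, minus strand) and *VSNL1*, which encodes a neuronal calcium sensor (chr2:17720393-17838285, plus strand), lay farthest from *MYCN*. *RAD51AP2* was covered by 10.8% in LAN-2, 6.88% in IMR-32, 4.22% in N206 and 0% in CHP-902R. SK-N-AS covered 5.47% of it, SH-SY5Y 4.29%, CLB-GA 3.56% and SJNB-1 0%. These values rest on 0 to 2 peaks in a short gene, and the groups overlapped. *VSNL1* was covered by 1.01% to 4.42% in the MNA lines and 1.68% to 3.62% in the single copy lines, with a difference of 0.299 percentage points (exact permutation test, p = 0.771).

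**Figure D2:**
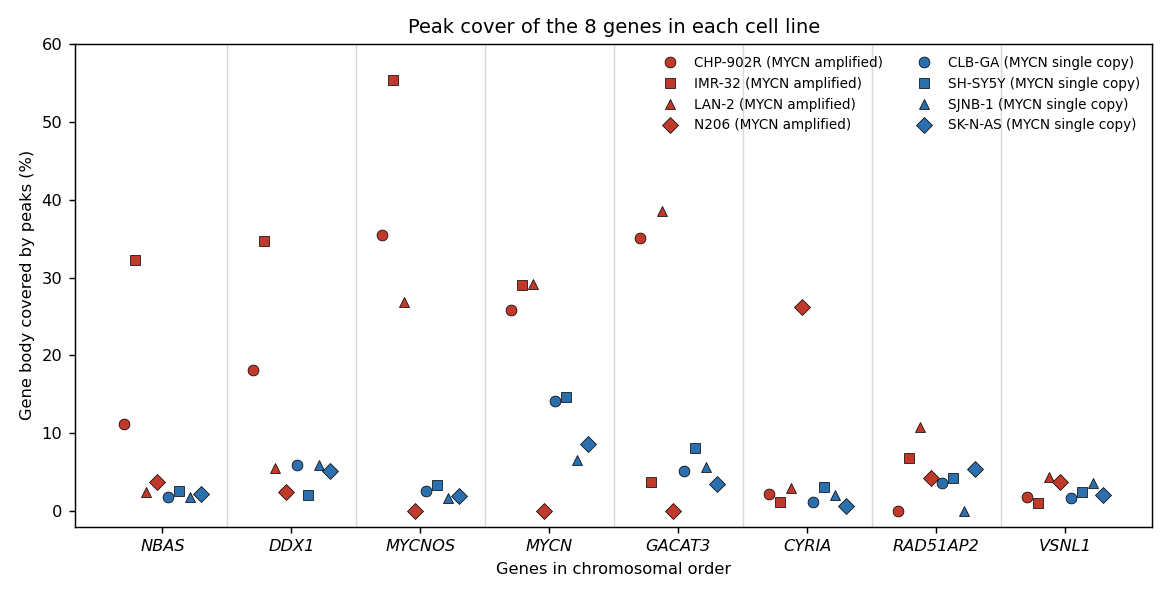
Share of each gene body covered by peaks (vertical axis, percent) in the 8 lines, with the genes in chromosomal order; a point is 1 line, red for MNA and blue for *MYCN* single copy. The MNA lines that stand above the single copy lines change from gene to gene, N206 lies at 0% for *MYCNOS*, *MYCN* and *GACAT3* and is the highest for *CYRIA*.

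In all, 0 of the 8 genes separated the 4 MNA from the 4 single copy lines in gene body cover by the exact permutation test, at an unadjusted p of at most 0.05, and the adjusted p was 1 for each. Over all 37187 genes with cover, 634 (1.70%) were higher in every MNA line than in every single copy line. The median difference of the 8 genes was 10.2 percentage points, beside 0.471 points over all genes tested. With N206 left out, 2 of the 8 genes, *MYCN* and *MYCNOS*, were called, beside 2.58% of all genes. N206 was left out for its values at these genes, so the 2 calls followed from that choice and are only a description. For the other genes behind the 2.58%, it was not picked by its value. The SD over lines was larger in the MNA group for each of the 8 genes: for *NBAS* it was 13.8 against 0.376 points and for *MYCNOS* 22.9 against 0.766 points.

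The extent of raised cover was then placed in each line by itself. A bin of 20 kb was taken as high when its peak cover exceeded the 99th percentile of the autosomal bins of the same list, and high bins were joined through gaps of up to 100 kb. In CHP-902R the joined span ran over chr2:15500001-16440000, 940 kb with 45 of 47 bins high and 27.8% of the DNA under peaks. In IMR-32 it ran over chr2:14740001-16140000, 1400 kb with 66 of 70 bins high and 34.1% under peaks. In LAN-2 it ran over chr2:15780001-16520000, 740 kb with 33 of 37 bins high and 30.0% under peaks. These 3 spans held *MYCN*. The cover of the 100 kb before and after was 0.407% to 4.30%. The joining rule keeps these 100 kb free of high bins, so their low cover does not show how sharp the ends are. With gaps of up to 200 kb the CHP-902R span ran to position 16580000.

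N206 differed. Its span ran over chr2:16240001-16800000, 560 kb with 18 of 28 bins high and 22.1% under peaks, and began 152872 bp past the end of *MYCN*. When gaps of up to 200 kb were joined, the run nearest to *MYCN* in N206 became chr2:15800001-16020000, 220 kb with 4 of 11 bins high. In the single copy lines the same rule found 260 kb with 4 of 13 bins high in CLB-GA, 140 kb with 3 of 7 bins high in SH-SY5Y (which had another run of 160 kb with 3 of 8 bins high), and no span in SJNB-1 and SK-N-AS. These single copy spans depended on the settings: CLB-GA had none under 3 of 6 alternatives, SH-SY5Y ranged from none to 460 kb, and SJNB-1 had one of 250 kb with bins of 10 kb and of 260 kb with scores of at least 100. LAN-2 had another run of raised cover farther along, chr2:18320001-18720000 with 12 of 20 bins high, and a short one at chr2:18860001-18940000. Peak cover is not a copy number, and whether these ends are ends of amplified DNA was not tested.

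**Figure D3:**
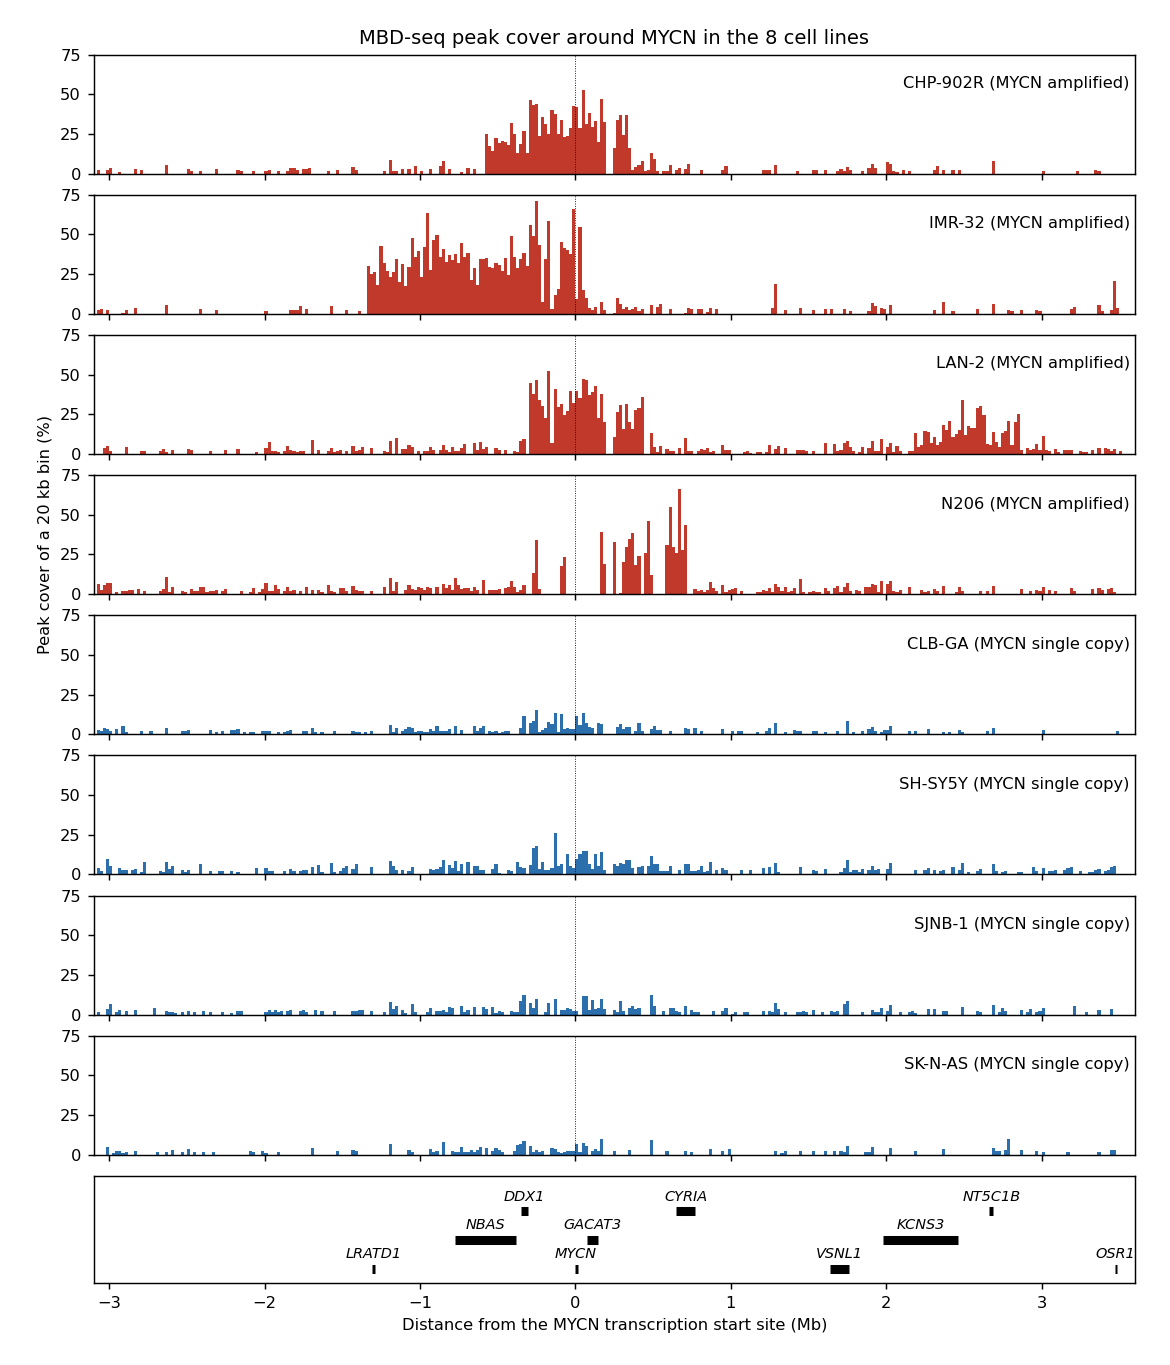
Peak cover of 20 kb bins (vertical axis, percent) against the distance from the *MYCN* TSS in Mb, 1 panel for each line, with genes drawn at the bottom. CHP-902R, IMR-32 and LAN-2 have a block of raised bins that holds *MYCN* and ends at different places. N206 has its block beyond *MYCN* and separate raised bins of up to 34.3% before it. The single copy lines have no such block, with bins of up to 25.9% in SH-SY5Y.

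The ends of the spans cut through or between the 8 genes, and since the spans were set by cover, the values inside them describe the ends and do not test them. All of *MYCN* and *MYCNOS* lay inside the spans of CHP-902R, IMR-32 and LAN-2. *DDX1* lay inside in CHP-902R and IMR-32, and *GACAT3* in CHP-902R and LAN-2. The weak single copy spans held all of *GACAT3* in SH-SY5Y and 79.8% of *DDX1* in CLB-GA. In CHP-902R, 51.1% of *NBAS* lay inside: the part before position 15500000 was covered by 0.802% and the rest by 21.2%. IMR-32, which held all of *NBAS*, covered the same parts by 32.0% and 32.6%, and the single copy lines covered both by 1.23% to 3.77%. In N206, 59.3% of *CYRIA* lay inside, and the cover was 44.3% up to position 16800000 and 0% after it. The other lines covered these parts of *CYRIA* by 0.0982% to 4.17% and 0.8004% to 3.54%. *RAD51AP2* and *VSNL1* lay in no span.

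N206 had no peak from position 16006448 to 16251431, a stretch of 244984 bp that holds all of *MYCNOS*, *MYCN* and *GACAT3*. In the same stretch LAN-2 had 59 peaks, CHP-902R 52, IMR-32 and SH-SY5Y 26 each, CLB-GA 24, SJNB-1 20 and SK-N-AS 13, so that N206 lay below the single copy lines too. The median stretch between neighbouring peaks of the N206 list was 12981 bp, and 1.08% of its stretches were at least as long as this one. This share counts stretches and not DNA. Long stretches hold more of the genome, so a given gene falls in such a stretch more often than the share says. The longest peak-free stretch within the 700 kb around *MYCN* was 11270 to 56037 bp in the other lines. In the 200 kb before the stretch, N206 covered 8.20% of the DNA, beside 1.94% to 8.34% in the single copy lines and 32.2% to 33.5% in the other MNA lines. In the 200 kb after it, N206 covered 21.4%, beside 1.54% to 5.57% in the single copy lines. The other MNA lines covered 22.4% (CHP-902R), 19.0% (LAN-2) and 3.84% (IMR-32) there. N206 is labelled as amplified, and the cause of its empty stretch was not tested.

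**Figure D4:**
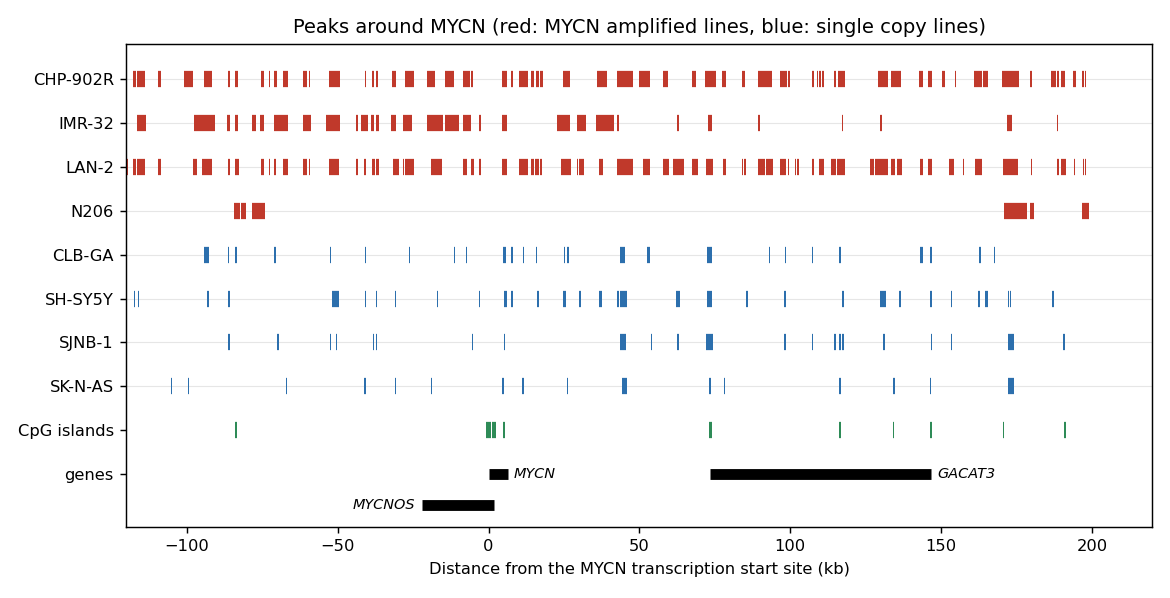
Peaks from 120 kb before to 220 kb after the *MYCN* TSS in each line (bars, horizontal axis: distance in kb), with CpG islands in green and 3 genes in black. N206 has no peak over *MYCNOS*, *MYCN* and *GACAT3*, whereas each of the 7 other lines has at least 13 in this stretch.

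At the promoters, taken as windows from 1500 bp before to 1000 bp after each annotated TSS, a peak was present in 6 of the 8 genes in at least 1 line. *NBAS* had one in all 8 lines, though at different TSS: no single *NBAS* TSS had one in more than 5 lines, and those at the start of the gene had one in SH-SY5Y alone. A promoter peak was found for *DDX1* and *GACAT3* in 7 lines (not in N206), *CYRIA* in 2 MNA and 3 single copy lines, *VSNL1* in IMR-32 and N206, and *RAD51AP2* in LAN-2. *MYCN* and *MYCNOS* had no promoter peak in any line, with the nearest peak 1303 bp or more from any of their TSS. The presence of a promoter peak separated the groups in 0 of 8 genes by Fisher's exact test, at an unadjusted p of at most 0.05. By the same test, 94 of 35840 genes with a promoter peak (0.262%) had one in every MNA line and in no single copy line.

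The CpG islands, defined by sequence, fell into covered and uncovered ones. The 2 islands at the *MYCN* and *MYCNOS* starts, chr2:16079700-16081526 with 120 CpG and chr2:16081913-16083120 with 124 CpG, had no peak in any of the 8 lines. Both islands lay inside the raised spans of CHP-902R, IMR-32 and LAN-2, in which peaks lay on either side of them. Islands at the starts of *NBAS* (chr2:15700616-15701645), *CYRIA* (chr2:16846747-16847518) and *VSNL1* (chr2:17719975-17720552) were also free of peaks in all lines. A second *VSNL1* start island (chr2:17721402-17722129) was covered by 34.9% in IMR-32 alone. The island at the *RAD51AP2* start (chr2:17699407-17700061) was covered by 60.5% in LAN-2 alone. Other islands of the 8 genes were covered in more lines. The island over the start of the last *MYCN* exon (chr2:16085590-16086231, 32 CpG) was covered by 100% in CLB-GA, IMR-32, LAN-2 and CHP-902R, by 85.2% in SH-SY5Y, 65.6% in SJNB-1, 21.3% in SK-N-AS and 0% in N206. The island at the most upstream *DDX1* TSS (chr2:15730736-15731393) was covered by 59.6% to 100% in the 7 lines other than N206. That at the *GACAT3* start (chr2:16153823-16154811) was covered by 68.1% to 100% in the same lines, and N206 had no peak on either. A further *DDX1* island, chr2:15731695-15732628, directly downstream and richer in CpG (7.82 against 4.71 per 100 bp), holds the *DDX1* TSS from position 15731857 to 15732030. This second start island was covered by 23.02% in IMR-32 and by no peak in the 7 other lines.

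The CpG content of the peaks showed which of them held many CpG. The median over the peaks in the 8 genes was 1.28 CpG per 100 bp in IMR-32, 1.63 in CHP-902R, 2.06 in LAN-2 and 2.12 in N206. Among the single copy lines it was 2.05 in SH-SY5Y, 2.18 in SK-N-AS, 2.22 in SJNB-1 and 2.67 in CLB-GA. In each line the other peaks of the list had a higher median, from 2.41 to 3.15, and the whole of GRCh37 holds 0.985 CpG per 100 bp. The mean of the medians was 1.77 ± 0.397 for the MNA and 2.28 ± 0.268 for the single copy group (SD, n = 4 each), and 1.66 ± 0.393 in the MNA group without N206 (SD, n = 3), given as a description with no test. CpG-poor peaks, with under 1 CpG per 100 bp, made up 26.5% of the 136 peaks in IMR-32, 10.2% of the 49 in N206, 7.21% of the 111 in CHP-902R and 1.35% of the 74 in LAN-2. In the single copy lines their share was 0% to 5.26% of 38 to 46 peaks.

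**Figure D5:**
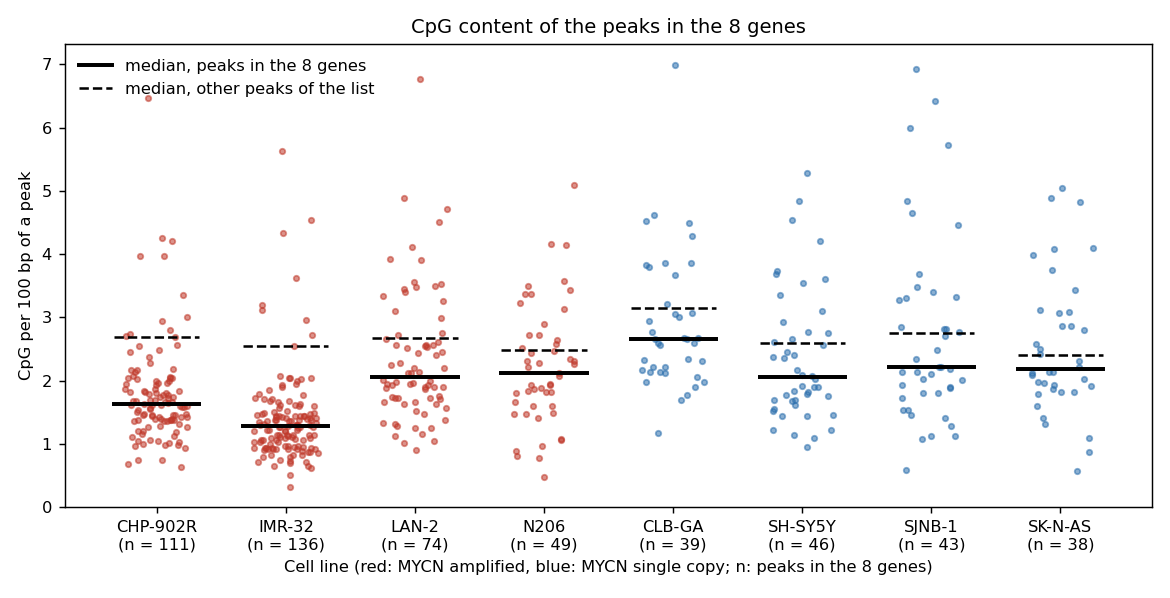
CpG per 100 bp (vertical axis) of each peak in the bodies of the 8 genes, by line; a point is 1 peak, the solid line is its median and the dashed line the median of the other peaks in the list. The medians of CHP-902R (1.63) and IMR-32 (1.28) lie lowest, and the solid line is below the dashed one in all 8 lines.

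The peaks within the MNA spans were also poorer in CpG than the rest of their list. Inside against outside the span, the median was 0.905 against 2.49 CpG per 100 bp in N206, 1.16 against 2.55 in IMR-32, 1.69 against 2.69 in CHP-902R and 1.80 against 2.68 in LAN-2. Peaks inside were wider, with medians of 3105.5 bp in N206, 1172 bp in IMR-32, 1112 bp in LAN-2 and 892 bp in CHP-902R against 456 to 548 bp outside, and 70.97% to 83.3% of them scored at least 100, against 13.9% to 22.7% outside. CpG-rich peaks, with at least 3 CpG per 100 bp, were few inside: 6 of 293 in IMR-32, 6 of 199 in CHP-902R, 4 of 155 in LAN-2 and 0 of 36 in N206. In the weak single copy spans 13 of 24 peaks were CpG-rich in CLB-GA and 4 of 16 in SH-SY5Y. Peaks inside the MNA spans were thus both wider and poorer in CpG, and the separate parts of width and CpG content were not tested.

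Most peaks of the single copy lines that fell inside a raised span were met by a peak of the MNA line. Of 246 such peaks in the span of CHP-902R 85.8% were met, of 294 in IMR-32 81.3%, and of 208 in LAN-2 88.0%. Elsewhere on the autosomes 25.6% to 34.7% of the single copy peaks were met by a peak of these 3 lines. In the span of N206, 37.4% of 107 were met, against 26.5% to 30.4% elsewhere, but the share ran from 22.2% of 27 CLB-GA peaks, below the 30.4% elsewhere, to 71.4% of 7 SK-N-AS peaks. The higher cover of the spans moves with these shares, and its part in them was not tested.

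When cover was limited to CpG-rich peaks, 0 of the 8 genes separated the groups by the exact permutation test, at an unadjusted p of at most 0.05, beside 0.971% of 28748 genes. For *MYCN* the cover by CpG-rich peaks was 25.8% in CHP-902R, whose peak had 3.003 CpG per 100 bp, and 0% in IMR-32 and LAN-2, whose peaks had 2.72 and 2.76. It was 14.6% in SH-SY5Y, 14.2% in CLB-GA, 6.52% in SJNB-1, and 0% for N206 and SK-N-AS, so the difference turned to -2.38 percentage points. For *GACAT3* it was 2.07% in IMR-32, 1.26% in LAN-2, and 0% for CHP-902R and N206, against 3.02% in CLB-GA, 2.81% in SK-N-AS, 1.99% in SJNB-1 and 1.78% in SH-SY5Y, a difference of -1.57 points (p = 0.0857 in the exact test). Without IMR-32 it was -1.98 points and the groups did not overlap (exact permutation test, p = 0.0286). The test cannot go below this p for these lines. IMR-32 was the only MNA line within the single copy range, so its removal fixed this outcome. With all lines kept, 0.410% of the 28748 genes separated in this direction, lower in the MNA lines. The share of all genes without IMR-32 and an adjusted p are not given for this comparison, so the split is only a description. The direction turned against that of all peaks for *MYCN*, *MYCNOS*, *GACAT3*, *CYRIA* and *VSNL1*, with none of these differences called. This turn depended on the limit: with 2 in place of 3 CpG per 100 bp the difference was 10.01 points for *MYCN*, 3.25 for *GACAT3*, 1.12 for *MYCNOS* and 0.483 for *VSNL1*. Without N206 the count of separating genes was again 0, beside 1.61% of all genes.

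When overlapping peaks of all lines were merged, 105 regions of the 8 genes (51.0%) had peaks in MNA lines only, beside 39.0% of the merged regions of all autosomes. Most of these 105 regions lay in *NBAS*, so the share mostly describes that long gene. In *NBAS*, IMR-32 had 109 peaks and CHP-902R 70, against 29 in N206 and 21 in LAN-2. Peaks in single copy lines only were found in 16 regions (7.77%, beside 27.9%). 1 region, in *NBAS*, had a peak in all 4 MNA lines and no single copy line (0.485%, beside 0.121% of all regions), and 9 had one in 3 MNA lines and no single copy line (4.37%, beside 1.07%).

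Beyond the 8 genes, 9 flanking genes of 2p24 were examined, and 0 of 9 separated the groups in cover by the exact permutation test, also at an unadjusted p of at most 0.05. Their median difference was 2.90 percentage points. *LRATD1* lay inside the span of IMR-32 alone, with 31.6% under peaks there and 0% in the 7 other lines. *OSR1*, a transcription factor gene outside every span, had a like value in IMR-32, 31.9%, and 0% to 4.87% in the other lines. *KCNS3*, a potassium channel subunit gene that reaches into the second run of LAN-2, was covered by 7.72% in LAN-2 and 0.424% to 1.81% in the other lines. Of 12 genes of the MYC/MAX network elsewhere in the genome, among them *MYC*, *MAX* and *MXI1*, 0 separated the groups by the same test, and their median difference was 0.573 points.

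The genes outside chromosome 2 whose cover over the 8 lines was ordered most like that of *MYCN*, among 34493 genes compared, were *IREB2* (Spearman's rho of 1), *LINC01470* (0.994), ENSG00000264545 (0.976), *SLC25A48* (0.976) and *SNX30* (0.976). These are descriptions over 8 lines, which share the list of each line, and the best of many genes reach a high rho by selection.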

How the data were processed

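Captured DNA of 4 MNA and 4 *MYCN* single copy lines was sequenced. The authors mapped paired-end reads of 45 bp on GRCh37 with Bowtie 0.12.7 and ran MACS separately for each line; peak calling options and an input control are not given in the sources used here. The deposited lists hold the position and a score of each peak, which rises as its p-value falls, and the score, which also grows with depth, was used to describe, rank and filter peaks.

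Cover was computed with Python 3.11.15, numpy 2.4.6, scipy 1.17.1 and pandas 2.3.3 for all genes of GENCODE release 44 on GRCh37. No peak ran past a chromosome end of the reference. Groups were compared for every gene with cover by a two-sided exact permutation test over lines, or by Fisher's exact test for promoter peaks, with Benjamini-Hochberg adjustment over all genes tested; a gene was called at an unadjusted p of at most 0.05. With 4 lines against 4 the smallest possible p is 0.0286. The calling step was tested on simulated data. CpG islands were stretches of at least 500 bp in which windows of 200 bp had at least 50% GC and an observed to expected CpG ratio of at least 0.6. The alternatives were other score limits, equal list lengths, windows, TSS sets, bins and CpG limits, and the removal of 1 line at a time.

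The 8 genes, the flanking and network lists and the tests were chosen with earlier results of these data known. All 8 genes are reported; flanking genes are named where they mark an end of raised cover (*OSR1* was added after its values were seen), and the genes most like *MYCN* are the 5 with the highest Spearman correlation. Some sequences are not reported here.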

Additional observations from a re-analysis of the deposited data

Results flagged for a closer look

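In the 4 MNA lines the cover of the *MYCN* body was 25.8%, 29.0% and 29.2% in CHP-902R, IMR-32 and LAN-2 and 0% in N206. The gap from N206 to the nearest line was 0.884 of the whole range, which marks N206 as far from the others by Dixon's limit for 4 samples. The cover of *CYRIA* was 26.2% in N206 and 1.12% to 3.04% in the other MNA lines, with a gap of 0.924 of the range. Of 18 groups examined 2 were set apart in this way, and chance does so for about 1 in 20 groups. The cause of either was not tested.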

How the results depend on the processing

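With peaks that scored at least 100, or with peak midpoints per 100 kb, 1 of the 8 genes (*NBAS*) separated the groups in cover in place of 0, beside 0.826% and 0.794% of all genes. Leaving out 1 line at a time gave 0 to 2 genes: *NBAS* without LAN-2, *MYCN* and *MYCNOS* without N206. In each case the line left out was the only MNA line that overlapped the single copy lines, so its removal fixed the call. In CpG-rich cover 1 gene (*NBAS*) was called with a score of at least 100 or with the limit at 2 CpG per 100 bp, beside 0.519% and 1.64% of all genes. *GACAT3* was lower in CpG-rich cover in the MNA lines without overlap once IMR-32, the only overlapping MNA line, was left out. The number of called promoters was 0 under each alternative. N206 had its span beyond *MYCN* under each alternative except gaps of up to 200 kb. There the rule, which takes the run nearest to *MYCN*, took a run of 220 kb before *MYCN* instead. The MNA minus single copy difference in median CpG per 100 bp was -0.51, and -1.10 with a score of at least 100; that in the share of CpG-poor peaks was 8.87 percentage points, and 25.8 with the limit at 1.5.

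Reversed differences, MNA minus single copy, were all uncalled. With CpG-rich peaks only, cover differed by -0.342 points for *MYCNOS*, -2.38 for *MYCN*, -1.57 for *GACAT3*, -0.0481 for *CYRIA* and -0.258 for *VSNL1*. *MYCN* differed by -3.87 peak midpoints per 100 kb. *VSNL1* differed by -0.158 points with a score of at least 100, by -0.175 relative to the autosomes, and by -0.258 to 0.879 points with 1 line left out. For promoter peaks that scored 100 or more, the share of lines differed by 0.25 for *DDX1* and *CYRIA* and 0.5 for *GACAT3*. For CpG-rich cover, a limit at 2 gave 1.12 points for *MYCNOS*, 10.01 for *MYCN*, 3.25 for *GACAT3* and 0.483 for *VSNL1*, a limit at 4 gave 0.0419 for *CYRIA* and 0.139 for *VSNL1*, and a score of at least 100 gave 1.27 for *MYCN* and 0.182 for *CYRIA*. With 1 line left out, it ran from -0.132 to 1.91 for *DDX1* and from -0.230 to 0.0125 for *CYRIA*. The cause was not tested for any of these.

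No paired analysis was possible because the lines are unrelated and a replicate number only names a line. The depth of each single line is unknown, which limits what a missing peak can show.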
